A study of Mus musculus with 8 samples.

Results

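The genes described here encode the subunits of the proteasome, its regulators and its assembly chaperones, measured in B cells and T cells of the mouse spleen. They are the protein-coding genes whose symbol is Psm, a letter from a to g and a number, with the interferon-induced catalytic subunits Psmb8 and Psmb9 and all pseudogenes left out. The rule found 48 genes among the 53801 gene IDs of the files, by symbol and without regard to their values. They fall into 8 genes of the core alpha ring, 9 of the core beta ring, 6 base ATPases, 11 lid and other base subunits, 6 regulators and 7 assembly chaperones. The remaining gene, Psmc3ip, matched the name pattern but encodes a meiotic recombination factor, and it is described apart from the subunits, though it is counted among the 48 genes and among those tested in RNA-seq.

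All cells came from the spleen of B6 mice, were isolated with magnetic sorting kits and then spent 2 hours in RPMI medium in a resting state. There were 4 groups of 2 libraries each, which are B cell footprints, T cell footprints, B cell RNA-seq and T cell RNA-seq. By their titles, footprints were sequenced single-end and RNA-seq paired-end. Footprints are the mRNA fragments that ribosomes protect from nuclease, and their cells received cycloheximide, which stalls ribosomes, at 100 µg/ml for the last 15 minutes, while the RNA-seq cells did not. B cell libraries bear the labels' numbers 1 and 3 in both assays, T cell footprints 1 and 2, and T cell RNA-seq 1 and 4. The labels do not say whether the libraries of a group came from separate animals or whether animals were pooled, so the spread between them may be technical.

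The proteasome degrades proteins that carry ubiquitin chains. Its core particle is a barrel in which outer rings of alpha subunits gate the entry and inner rings of beta subunits hold the cutting sites. A regulatory particle caps the barrel. Its base has a ring of ATPases that unfold the substrate, and its lid holds the enzyme that removes ubiquitin. In lymphocytes, interferon-induced catalytic subunits and the PA28 activator give a form of the particle that is known for making peptides for antigen presentation.

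Footprint libraries were shallow, at 236810 and 232568 counts for B cells, and at 627833 and 136433 counts for T cells. The RNA-seq totals were 9466190 and 8989740 counts for B cells, and 10050986 and 8945905 counts for T cells. Levels are in the usual depth-scaled unit, CPM, with each library total scaled by a TMM factor taken over all 8 libraries. A single count was worth 1.56 to 6.79 CPM in footprints and 0.103 to 0.114 CPM in RNA-seq. The cell labels held in sums of markers. The 6 B cell markers came to 7740 to 11600 CPM in B cell libraries and 66.0 to 557 CPM in T cell libraries of either assay. The 6 T cell markers came to 67.4 to 386 CPM in B cells and 2830 to 4960 CPM in T cells. In B cell RNA-seq they were at 67.4 CPM in library 1 and 386 CPM in library 3. Of the 6, Cd3e, Cd3d, Cd3g and Lat did not pass in RNA-seq despite log2 differences of -4.35 to -4.09 (edgeR adjusted p = 0.0534 to 0.101). Markers of other cells were also present and differed within groups. The largest such sums were those of 3 plasma cell markers, which in footprints came to 1170 and 2740 CPM in B cells and 323 and 469 CPM in T cells, and in RNA-seq to 1540 and 364 CPM in B cells and 1110 and 110 CPM in T cells. In B cells library 3 was thus the higher one in footprints and library 1 in RNA-seq. Jchain alone made up most of the B cell sums, at 1050 and 2550 CPM in footprints and 1370 and 245 CPM in RNA-seq. It was called higher in B cell footprints, at 3.11 ± 0.60 on the log2 scale (edgeR adjusted p = 0.00415). Xbp1 footprints went the other way, at -0.71 ± 0.42, and did not pass (edgeR adjusted p = 0.362). Sdc1 was not tested in footprints. The part of the markers of other cells in the results was not tested.

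Of the 48 genes, 46 passed the filter on low counts in RNA-seq and 36 passed it in footprints. Psma8, an alpha subunit known from the testis, and Psmb11, a catalytic subunit known from the thymic cortex, were at 0 or 1 counts in every library and passed in neither assay. The others without a footprint test were Psmb5, Psme2b, all 7 assembly chaperones and Psmc3ip. The 36 genes with both tests had a median count of 38.5 and 26.5 in the B cell footprint libraries, of 104.5 and 21 in T cell footprints, and of 866.5 to 1011.5 in RNA-seq. Their lowest footprint counts were 10 and 7 in the B cell libraries, and 33 and 7 in the T cell libraries. Some 14 of the 48 genes overlap another annotated gene, and since the sources used here do not give the use of strand in counting, reads in the overlap cannot be assigned with certainty. Counts were not divided by gene length, so levels of different genes are not compared below.

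The 48 genes together took 0.676% and 0.592% of protein-coding footprint counts in B cells, against 0.817% and 0.847% in T cells. The exact 95% intervals, which cover counting error alone, were 0.641 to 0.713 and 0.557 to 0.629% in B cells and 0.793 to 0.841 and 0.792 to 0.905% in T cells. The footprint shares of the B cell libraries were thus both below those of the T cell libraries. In RNA-seq the share was 0.454% and 0.495% for B cells, against 0.487% and 0.553% for T cells, and these ranges overlapped. With 2 libraries in a group no exact test of a single value can pass the threshold, and none was made. In bulk samples fewer cells of a type and less RNA per cell cannot be told apart.

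**Figure D1:**
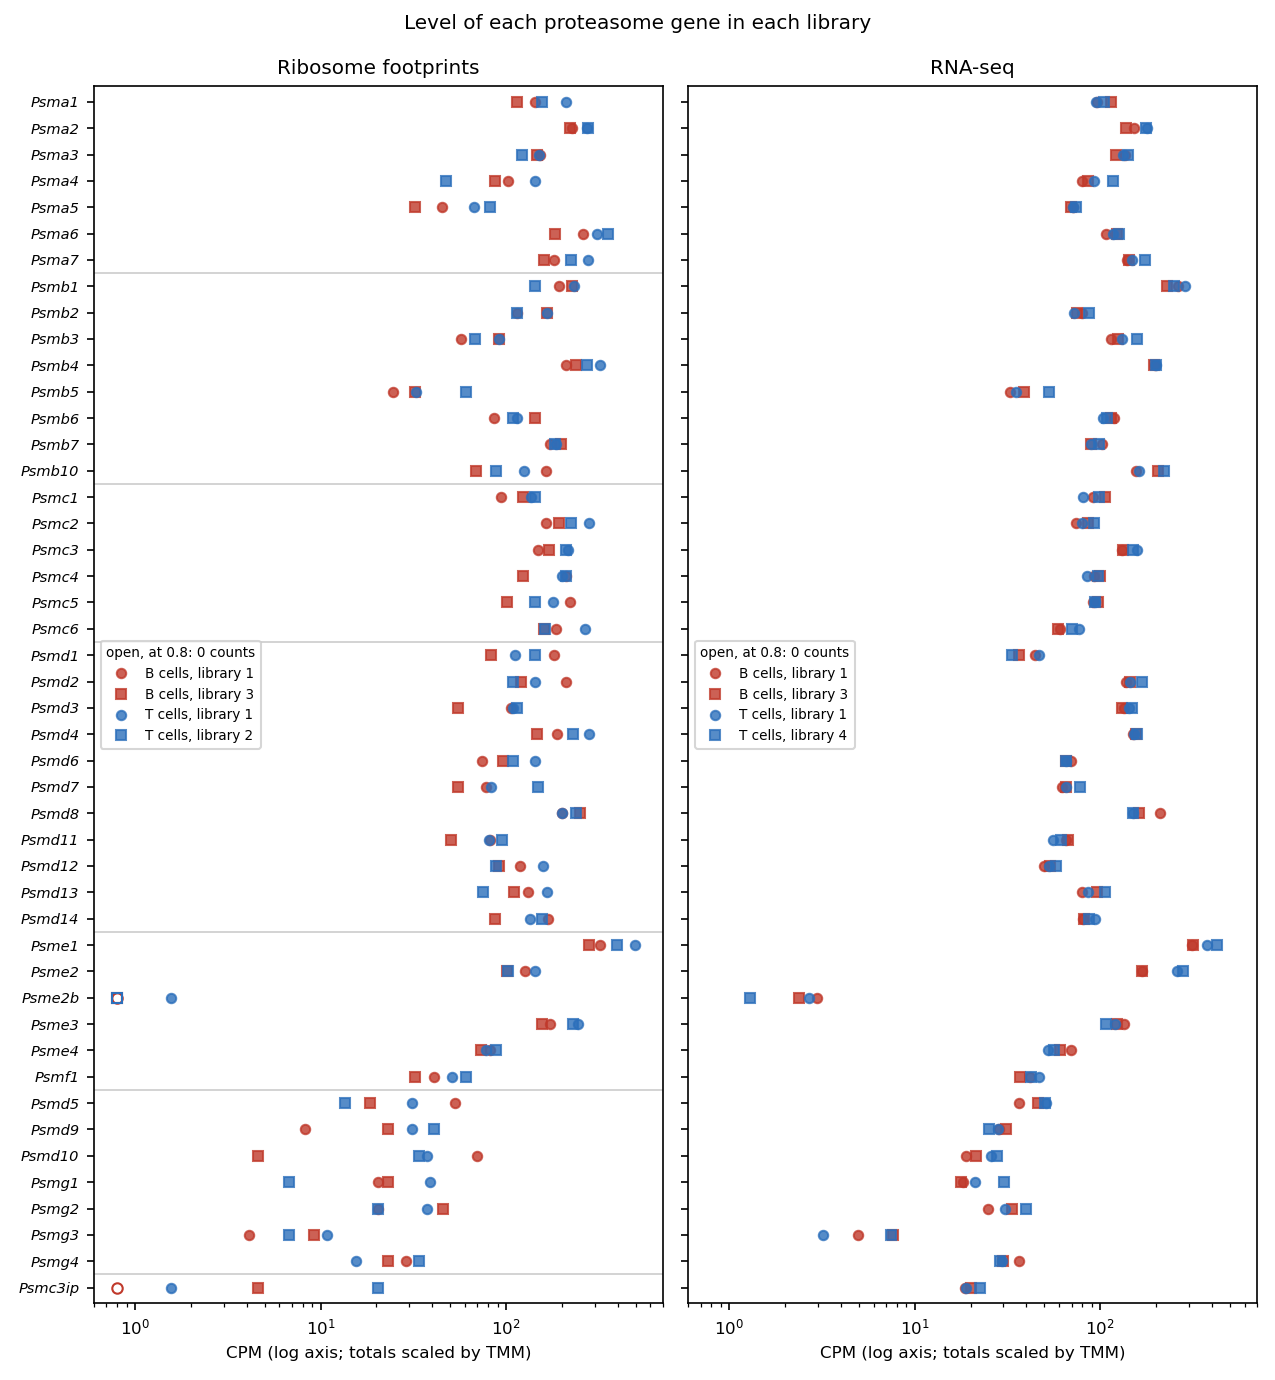
Level of each proteasome gene in CPM on a log axis, in footprints on the left and RNA-seq on the right, with B cells in red and T cells in blue and each point a single library. Open symbols at the left edge mark libraries with 0 counts, lines divide the structural groups, and Psma8 and Psmb11, which have almost no counts, are not drawn. The libraries of a gene lie close together in RNA-seq, where a single count is worth at most 0.114 CPM, and are spread more widely in footprints.

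At the mRNA level the proteasome genes were close to even between B cells and T cells. Only Psme2, which encodes the beta subunit of the PA28 activator, passed the threshold, and it was lower in B cells. In B cells 0 of 46 genes were called higher and 1 of 46 lower, by edgeR's quasi-likelihood test at an adjusted p under 0.05, while over all 13929 genes tested 18.5% were called in either direction and 9.06% were called lower. DESeq2 likewise called 0 higher and 1 lower. At an unadjusted p under 0.05 the count was again 1 of 46, against 32.5% of all genes. The median log2 difference, B over T cells, was -0.08 for the 46 genes and -0.01 for all genes. The 46 values ranged from -0.68 to 0.44, and 44 of them lay within 0.5 of 0, as did 57.0% of all genes. The standard deviation of the log2 differences was 0.22 over the 46 genes and 1.48 over all genes. These genes are also measured more precisely than most, with a median standard error of 0.14 against 0.24 for all genes. For 42 of the 46 the 95% interval lay wholly within a change of 1 on the log2 scale. Both B cell libraries had more CPM than both T cell libraries for 8 of the 46 genes and less for 16. The groups therefore did not overlap for 52.2% of the 46 genes and 61.3% of all genes. A lack of overlap in RNA-seq, where given below for single genes, is thus the usual state.

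In footprints, 0 of 36 genes were called in B cells against T cells, by edgeR and by DESeq2 alike, and 0 of 36 had an unadjusted p under 0.05 in edgeR. Over all 4771 genes tested 13.2% were called. The median log2 difference was -0.24 for the 36 genes and 0.02 for all genes, and 25 of the 36 values were negative. Without B cell footprint library 1 the first median was -0.39. The smallest edgeR adjusted p was 0.401. The median standard error was 0.40, and the 95% interval lay within a change of 1 on the log2 scale for 6 of the 36 genes, so changes of moderate size were not detectable at this depth. In 16 of the 36 genes both B cell libraries had less CPM than both T cell libraries, and in 0 both had more. Of all genes tested 1350 had the first order and 1114 the second. The groups therefore did not overlap for 44.4% of the 36 genes and 51.6% of all genes.

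**Figure D2:**
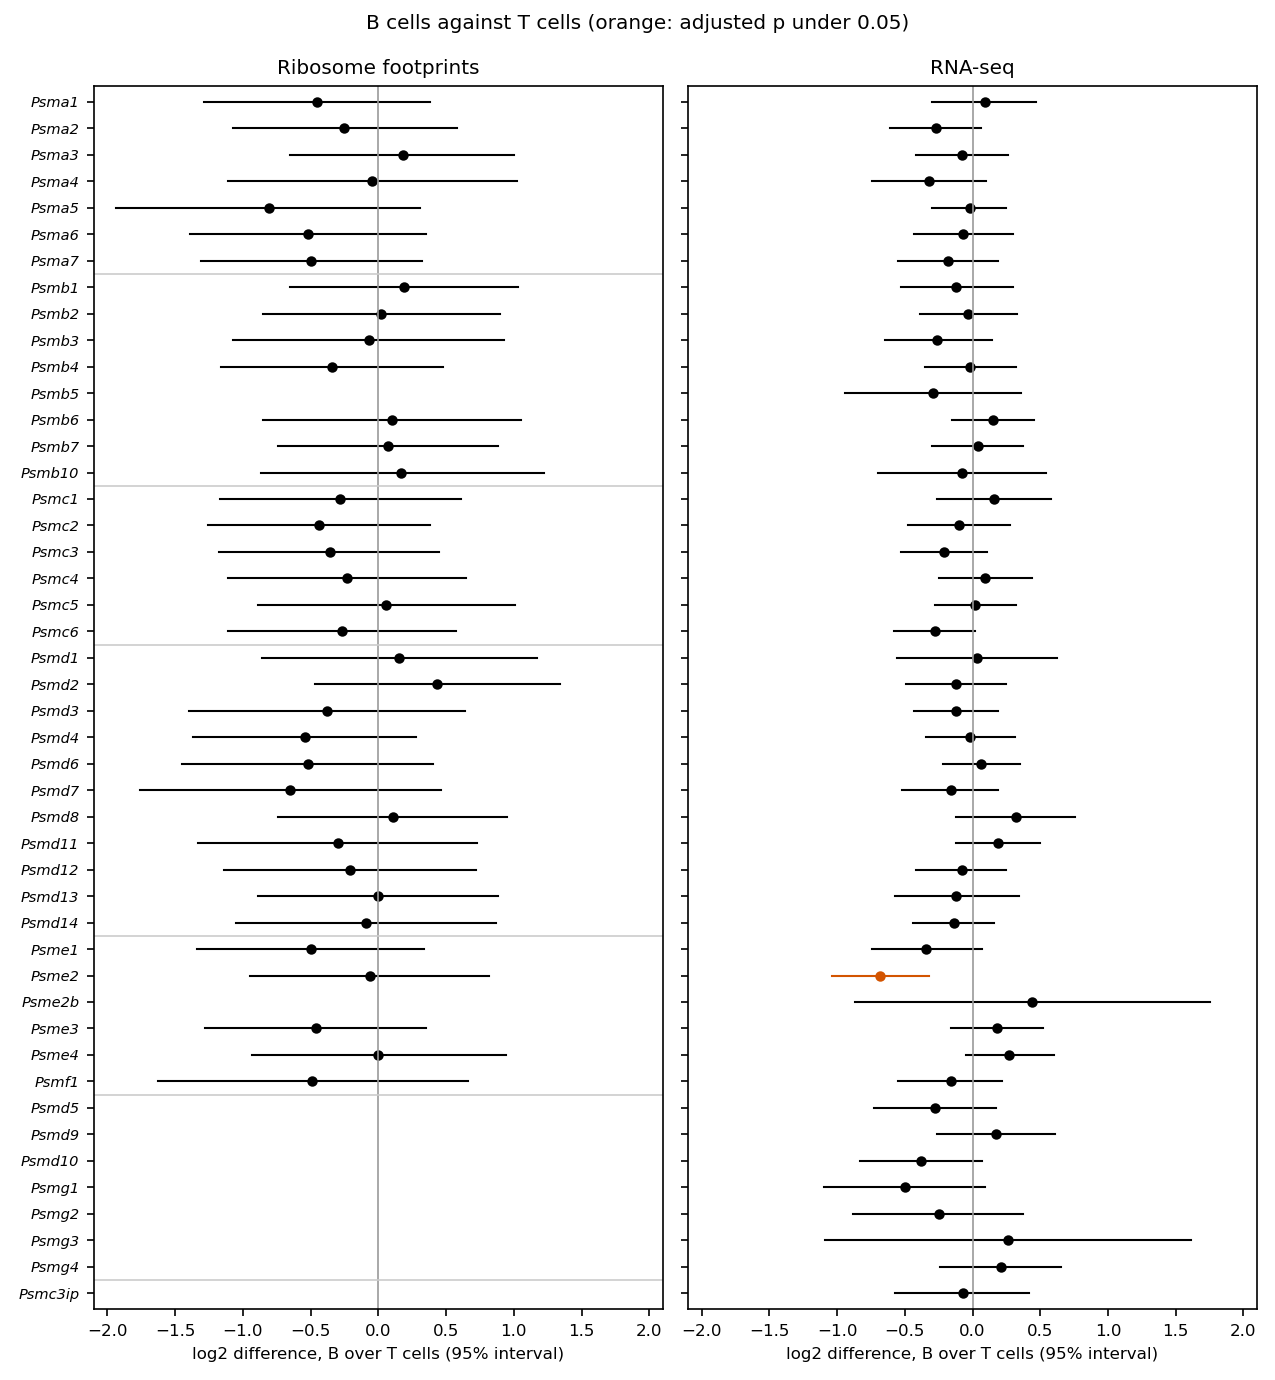
Log2 difference of each proteasome gene, B over T cells, with its 95% interval, in footprints on the left and RNA-seq on the right; orange marks an adjusted p under 0.05. Only Psme2 in RNA-seq, at -0.68, is orange, and the footprint intervals are wide, with values between -0.81 and 0.43.

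Footprints were next set against mRNA within each cell type. Each such ratio sets single-end against paired-end reads, so assay and read layout cannot be told apart in it. In B cells 4 of 36 genes had more footprints than their mRNA share and 1 had fewer, together 13.9%, and in T cells 9 had more and 2 fewer, together 30.6%. Over all 4660 genes tested, 22.9% were called in B cells, 10.2% higher and 12.8% lower, and 31.4% in T cells, 14.5% higher and 16.9% lower. The share of the proteasome genes called was thus below that of all genes in B cells and near it in T cells, and is no result about these genes. The counted feature is not stated by the sources, so the untranslated part of an mRNA may enter the ratio of each gene, and this was not tested. The median log2 value, footprints over mRNA, was 0.08 in B cells and 0.31 in T cells for the 36 genes, and 0.01 and -0.04 for all genes. The values are relative to the whole set of genes, since TMM scaling within each assay moved the median of all genes to 0.25 in B cells and 0.24 in T cells. The 36 genes spread from -1.05 to 1.53 in B cells and from -1.37 to 1.36 in T cells.

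These calls depended on single libraries, mostly through the adjusted p: the log2 values themselves ran, for example, from 1.25 to 1.41 for Psmc6 and from 0.64 to 0.88 for Psmb7 in B cells, whichever library was left out. Exceptions were Psmd1 in B cells, at 0.86 to 1.95, and Psmd12 in T cells, at 0.54 to 1.17. Without B cell RNA-seq library 1 or 3, 0 genes were called in B cells. Without B cell footprint library 1 the genes called lower in B cells became 2, and without T cell RNA-seq library 1 or 4 they became 0. In T cells, the genes called higher were 3 without footprint library 1 or RNA-seq library 1 or 4, and 5 without B cell RNA-seq library 3. The genes called lower in T cells were 1 without T cell footprint library 1 or 2 or RNA-seq library 4, and 5 and 4 without B cell footprint libraries 1 and 3. Psmc6, Psmc2 and Psme2 passed in T cells whichever library was left out. A call in the same direction in both cell types was made for Psmd1, Psmc6, Psmc2 and Psmb7.

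The order of the genes by footprints over mRNA was similar in the 2 cell types, whose libraries are separate. Over the 36 genes the B cell and T cell values had a Pearson correlation of 0.87 and a Spearman correlation of 0.87, against 0.72 and 0.73 over all 4660 genes. This is a description across genes, and the 2 values of a gene share its sequence, its length and the way it was counted. The difference between the cell types in this ratio, the translational efficiency of B over T cells, was called for 0 of 36 genes and for 0% of the 4660 genes by edgeR. At an unadjusted p under 0.05 the counts were 0 of 36 and 357 of 4660, and DESeq2 called 0 of 36 and 4 of 4660. The median over the 36 genes was -0.14 and over all genes 0.04, and the smallest edgeR adjusted p among the 36 was 0.651. For 12 of the 36 the 95% interval lay within a change of 1 on the log2 scale.

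**Figure D3:**
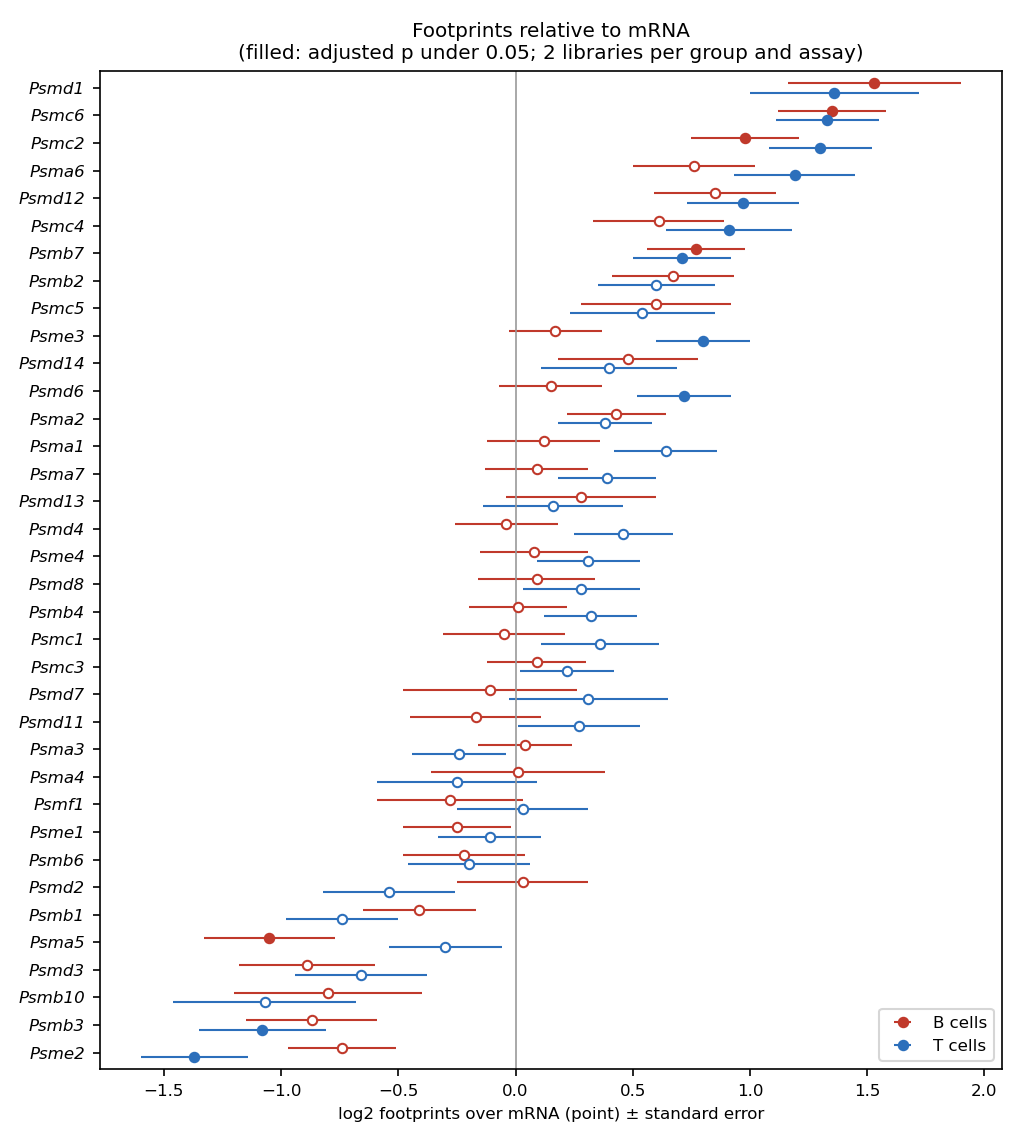
Log2 of footprints over mRNA with its standard error for the 36 genes tested in both assays, B cells in red and T cells in blue, ordered by the mean of both; filled points passed an adjusted p of 0.05. Psmd1, Psmc6 and Psmc2 stand at the top and Psme2 and Psmb3 at the bottom, with the red and blue points of a gene mostly side by side.

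Among the regulators, the PA28 activator of the core is built from the products of Psme1 and Psme2, which alternate in its ring in the cytoplasm, while Psme3 forms a related ring in the nucleus. Psme1 and Psme2 are neighbours on mouse chromosome 14, and both are known as interferon-induced genes. Their promoter windows are shown because Psme2 was the only proteasome gene called between the cell types in mRNA, a call that was lost without any one library. Each window runs from 250 bases before to 50 bases after the start in RefSeq on GRCm38.p6, read 5′ to 3′ along the gene's strand, at chr14:55578244-55578543 on the plus strand for Psme1 and chr14:55591052-55591351 on the minus strand for Psme2. Capitals mark GAAA, any 2 bases and GAAA again, the core of the interferon-stimulated response element, here matched on the opposite strand and 10 bases after the start of Psme1. This motif was searched for on both strands after the expression values had been seen.
Psme1: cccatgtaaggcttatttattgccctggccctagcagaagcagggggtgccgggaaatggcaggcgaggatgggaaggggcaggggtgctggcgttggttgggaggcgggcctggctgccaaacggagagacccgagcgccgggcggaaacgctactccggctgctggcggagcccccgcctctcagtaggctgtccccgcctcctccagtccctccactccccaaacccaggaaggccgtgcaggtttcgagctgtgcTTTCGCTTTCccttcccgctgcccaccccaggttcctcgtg
Psme2: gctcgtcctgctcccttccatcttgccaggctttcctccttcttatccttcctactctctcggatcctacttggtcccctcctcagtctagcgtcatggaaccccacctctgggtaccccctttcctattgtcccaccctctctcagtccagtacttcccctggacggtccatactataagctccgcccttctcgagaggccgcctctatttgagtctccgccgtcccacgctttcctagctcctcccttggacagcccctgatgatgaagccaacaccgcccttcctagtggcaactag
The window of Psme2 does not hold these letters. They occur in 5 of the 40 proteasome genes that have a window, or 12.5%, which are Psmb3, Psmd4, Psme1, Psmd9 and Psmg4, and in 3.99% of the 27025 genes of the table. A match describes the letters in the window and no binding.

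Psme2 mRNA stood at 168 and 168 CPM in B cells, against 260 and 281 CPM in T cells. Both B cell libraries were below both T cell libraries, and the 2 libraries of each group were close. The log2 difference was -0.68 ± 0.14 (SE, n = 2 libraries each), with a 95% interval of -1.04 to -0.32 and an edgeR adjusted p of 0.0344. The call rested on all 4 libraries: without any one of them the difference stayed between -0.73 and -0.63 but the edgeR adjusted p was 0.0781 to 0.141. It was also lost with no filter on low counts, at an edgeR adjusted p of 0.0566, and with RNA-seq thinned to 136433 counts a library, the smallest footprint total, at -0.97 and an adjusted p of 0.0531. Markers of natural killer cells, 3 in all with none at 0, summed to 7.43 and 30.4 CPM in the RNA-seq of B cells and to 63.6 and 89.5 CPM in T cell RNA-seq. Macrophage and monocyte markers, 5 in all with none at 0, summed to 46.5 and 126 CPM in B cells and to 50.6 and 276 CPM in T cells. Their part in the result was not tested.

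Psme2 footprints were at 127 and 101 CPM in B cells and 143 and 102 CPM in T cells, which overlapped. The log2 difference was -0.06 ± 0.40, with a 95% interval of -0.95 to 0.82 that includes the mRNA difference. Set against its mRNA, Psme2 had fewer footprints in T cells, at -1.37 ± 0.23 and an edgeR adjusted p of 0.00482. In B cells the value was -0.74 ± 0.23 with an edgeR adjusted p of 0.0556. The difference between these ratios was 0.63 ± 0.32, the largest positive translational efficiency difference of the 36 genes. It did not pass, with an edgeR adjusted p of 0.657. Psme2b is a near copy of Psme2, so the counting could split or lose reads that they share. Whether this lowered the footprint values of Psme2 was not tested.

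Psme1, the alpha partner, was at 314 and 315 CPM of mRNA in B cells and 375 and 428 CPM in T cells. Its groups did not overlap, as for 61.3% of all genes in RNA-seq. The log2 difference of -0.34 ± 0.16 did not pass (edgeR adjusted p = 0.22). Its footprints were 321 and 281 CPM in B cells and 493 and 394 CPM in T cells (log2 -0.50 ± 0.38, edgeR adjusted p = 0.514). Footprints over mRNA were -0.25 ± 0.23 in B cells and -0.11 ± 0.22 in T cells. The count of Psme2 for each count of Psme1 was 0.533 and 0.533 in the RNA-seq of B cells, against 0.694 and 0.657 in that of T cells, with exact 95% intervals that did not overlap between cell types. In footprints it was 0.397 and 0.361 for B cells, against 0.291 and 0.259 for T cells, with overlapping intervals. All these intervals cover counting error alone, while libraries of a group differed by more than sampling noise. The ratio was therefore lower in B cells in mRNA and not so in footprints. Lengths are not removed from it, nor is any loss of reads shared with Psme2b.

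Psme3 had 134 and 123 CPM of mRNA in B cells and 120 and 108 CPM in T cells (log2 0.18 ± 0.13, edgeR adjusted p = 0.411). Its footprints were at 173 and 157 CPM in B cells and at 243 and 231 CPM in T cells (log2 -0.46 ± 0.37, edgeR adjusted p = 0.539). B cell libraries were thus above T cell libraries in mRNA and below them in footprints, and neither difference passed. Footprints exceeded mRNA in T cells, at 0.80 ± 0.20 with an edgeR adjusted p of 0.0189, and stood at 0.17 ± 0.20 in B cells. This T cell call was lost without T cell footprint library 1, B cell RNA-seq library 3 or either T cell RNA-seq library. The difference of the ratios, -0.63 ± 0.28, had the smallest edgeR adjusted p of the 36 genes, 0.651. Psme4, which encodes the nuclear activator PA200, had 69.5 and 60.6 CPM of mRNA in B cells and 52.4 and 56.2 CPM in T cells (log2 0.27 ± 0.12, edgeR adjusted p = 0.215). Psmf1, a known inhibitor of the core, was at -0.16 ± 0.15 in mRNA and -0.49 ± 0.52 in footprints. Psme2b, a near copy of Psme2 whose reads are uncertain, had the largest positive mRNA value at 0.44 ± 0.50, from 26 and 22 counts in B cells, and 26 and 12 counts in T cells.

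**Figure D4:**
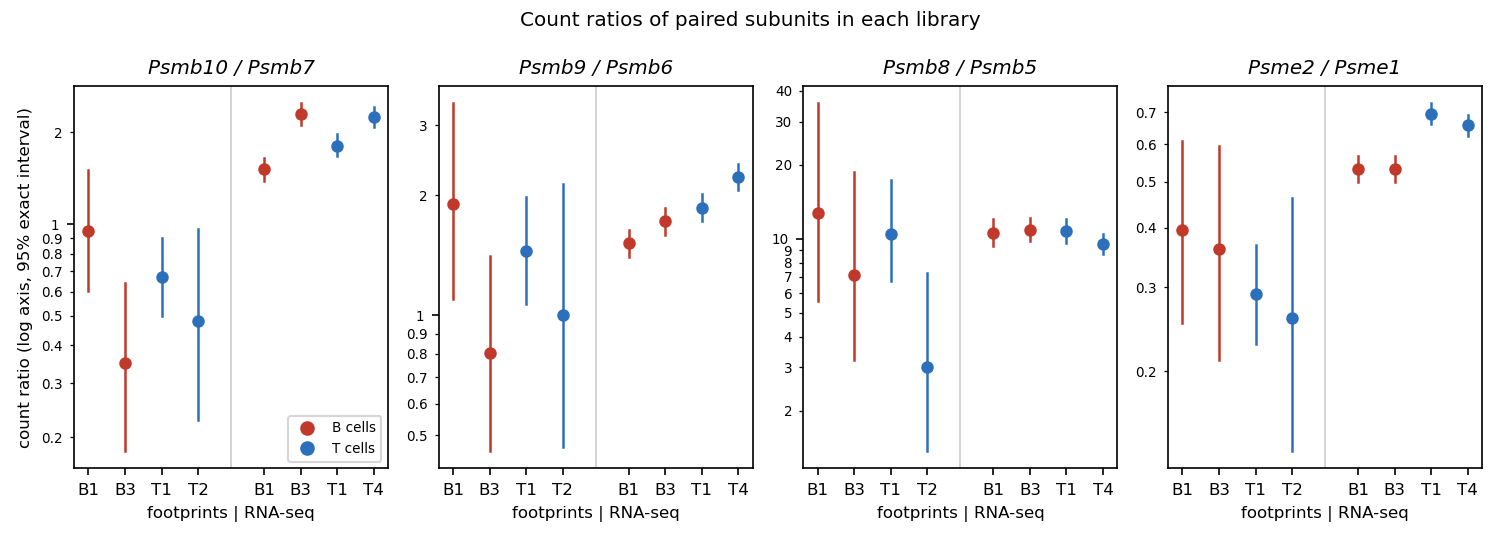
Count of an interferon-induced subunit for each count of the subunit it replaces, and of Psme2 for each count of Psme1, in each of the 8 libraries on a log axis; bars are exact 95% intervals, with B cells in red and T cells in blue. The RNA-seq ratios of Psme2 to Psme1 are 0.533 in both B cell libraries and lie below those of T cells, and the ratios of Psmb10 to Psmb7 are below 1 in footprints and above 1 in RNA-seq.

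The core beta ring holds the 3 constitutive catalytic subunits, encoded by Psmb5, Psmb6 and Psmb7, and their interferon-induced replacements are encoded by Psmb8, Psmb9 and the member Psmb10. In mRNA, 0 of 8 tested beta genes were called, against 18.5% of all genes, and their median log2 difference was -0.05. In footprints 0 of 7 were called, against 13.2% of all genes, with a median of 0.07. At these shares a count of 0 among so few genes is no result about a structural group. The windows of Psmb5 and Psmb6 are shown because both hold, in capitals, TGACNNNGC, the core of the antioxidant response element, to which the factor Nfe2l1 is known to bind in proteasome genes. They lie at chr14:54617946-54618245 on the minus strand and chr11:70525107-70525406 on the plus strand of GRCm38.p6 in RefSeq, and the matches begin 47 and 9 bases before the start.
Psmb5: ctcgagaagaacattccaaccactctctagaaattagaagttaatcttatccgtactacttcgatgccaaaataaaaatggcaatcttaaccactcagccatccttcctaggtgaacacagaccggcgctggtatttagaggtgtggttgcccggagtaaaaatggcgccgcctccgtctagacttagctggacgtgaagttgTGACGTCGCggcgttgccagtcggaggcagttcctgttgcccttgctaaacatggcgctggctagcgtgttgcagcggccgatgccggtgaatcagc
Psmb6: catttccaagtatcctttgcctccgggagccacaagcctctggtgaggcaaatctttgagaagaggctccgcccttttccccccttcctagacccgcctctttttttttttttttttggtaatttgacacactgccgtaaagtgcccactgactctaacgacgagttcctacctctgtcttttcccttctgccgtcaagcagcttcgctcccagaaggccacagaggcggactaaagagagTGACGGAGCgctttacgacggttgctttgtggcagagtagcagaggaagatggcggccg
On either strand these letters were in 6 of 40 windows, or 15%, which are those of Psmb5, Psmb6, Psmc6, Psmd12, Psme4 and Psmd9. They were in 3781 of 27025 genes of the table, or 14%, so the proteasome genes held them about as often as all genes.

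Psmb5, the chymotrypsin-like site, had 32.7 and 38.6 CPM of mRNA in B cells and 35.3 and 53.1 CPM in T cells (log2 -0.29 ± 0.25, edgeR adjusted p = 0.494). Its footprints were 6 and 7 counts in B cells, and 21 and 9 counts in T cells, too few to test. Psmb6, the caspase-like site, had 119 and 114 CPM of mRNA in B cells and 103 and 109 CPM in T cells (log2 0.15 ± 0.11, edgeR adjusted p = 0.454). Its B cell libraries were both higher, by less than the test could call. Psmb6 footprints were 86.3 and 143 CPM in B cells and 114 and 109 CPM in T cells, which overlapped (log2 0.10 ± 0.43). Footprints over mRNA were -0.22 ± 0.26 in B cells and -0.20 ± 0.26 in T cells.

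Psmb7, the trypsin-like site, had 102 and 88.8 CPM of mRNA in B cells and 89.1 and 98.3 CPM in T cells (log2 0.04 ± 0.13). Its footprints were 173 and 198 CPM in B cells and 186 and 183 CPM in T cells (log2 0.07 ± 0.37). Neither set of libraries was apart from the other. Psmb7 had more footprints than its mRNA share in both cell types, at 0.77 ± 0.21 in B cells (edgeR adjusted p = 0.0365) and 0.71 ± 0.21 in T cells (edgeR adjusted p = 0.0366). The B cell call was lost without B cell footprint library 3 or any one RNA-seq library, and the T cell call without either T cell footprint library or any one RNA-seq library. Psmb7 overlaps the predicted gene Gm13586.

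Psmb10, the interferon-induced replacement of Psmb7, had 155 and 204 CPM of mRNA in B cells and 161 and 221 CPM in T cells (log2 -0.08 ± 0.24, edgeR adjusted p = 0.867). In both cell types library 1 was the lower one. Its footprints were 164 and 69.1 CPM in B cells and 125 and 88.3 CPM in T cells (log2 0.17 ± 0.48). Footprints over mRNA were -0.80 ± 0.40 in B cells and -1.07 ± 0.39 in T cells, with edgeR adjusted p of 0.181 and 0.0738. Psmb10 therefore lay low where Psmb7 lay high, although Psmb10 did not pass. The count of Psmb10 for each count of Psmb7 was 0.952 and 0.349 in B cell footprints and 0.672 and 0.481 in T cell footprints. In RNA-seq it was 1.52 and 2.29 for B cells, and 1.81 and 2.25 for T cells. In each cell type both footprint ratios were below both RNA-seq ratios. The exact intervals of B cell footprint library 1, 0.602 to 1.5, and of B cell RNA-seq library 1, 1.39 to 1.65, still overlapped.

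For Psmb9 and Psmb6 both footprint ratios lay below both RNA-seq ratios in T cells, but not in B cells. The count of Psmb9 for each count of Psmb6 was 1.90 and 0.806 in B cell footprints and 1.45 and 1.0 in T cell footprints, against 1.52 and 1.72 in the RNA-seq of B cells and 1.86 and 2.22 in that of T cells. In RNA-seq both B cell ratios were below both T cell ratios. The count of Psmb8 for each count of Psmb5 was 10.6 and 10.9 in the RNA-seq of B cells and 10.8 and 9.51 in that of T cells, nearly the same in all 4 libraries. In footprints it ran from 7.14 to 12.7 in B cells and from 3.0 to 10.5 in T cells on few Psmb5 counts. The log2 mRNA difference was -0.19 ± 0.22 for Psmb8 and -0.19 ± 0.18 for Psmb9.

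The structural beta gene Psmb3 stood low in footprints over mRNA. It had 57.5 and 92.1 CPM of footprints in B cells and 92.0 and 67.9 CPM in T cells, against 115 and 124 CPM of mRNA in B cells and 131 and 158 CPM in T cells. All 4 footprint values were below all 4 mRNA values. The log2 ratio was -1.08 ± 0.27 in T cells, with an edgeR adjusted p of 0.0207, and -0.87 ± 0.28 in B cells, with an edgeR adjusted p of 0.0621. The T cell call was lost without either T cell footprint library, where the edgeR adjusted p was 0.0987 and 0.0695, and without T cell RNA-seq library 4, where it was 0.101. Psmb1 had the second largest positive footprint difference between the cell types, 0.19 ± 0.38, from 193 and 226 CPM in B cells and 232 and 143 CPM in T cells, which overlapped.

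Of 7 tested alpha ring genes, 0 were called in either assay, against 18.5% of all genes in RNA-seq and 13.2% in footprints. Their median log2 difference, B over T cells, was -0.08 in mRNA and -0.45 in footprints. Psma5 showed the most negative footprint difference of the 36 genes. It had 45.2 and 32.2 CPM of footprints in B cells, against 67.0 and 81.5 CPM in T cells, from 11 and 7 counts and from 43 and 12 counts. Its groups did not overlap, but the log2 difference of -0.81 ± 0.51 did not pass (edgeR adjusted p = 0.401). Its mRNA was level, at 71.7 and 69.9 CPM in B cells and 71.1 and 74.0 CPM in T cells (log2 -0.02 ± 0.11). Footprints over mRNA were called lower in B cells, at -1.05 ± 0.28 (edgeR adjusted p = 0.0318), and stood at -0.30 ± 0.24 in T cells. The difference of these ratios, -0.75 ± 0.37, was the most negative of the 36 genes and did not pass (edgeR adjusted p = 0.657). The B cell call was lost without B cell footprint library 3 or any one RNA-seq library, and the edgeR adjusted p ran from 0.027 to 0.127 over the 8 libraries left out in turn.

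Psma6 behaved differently from Psma5. It had 259 and 184 CPM of footprints in B cells and 310 and 353 CPM in T cells, and 107 and 123 CPM of mRNA in B cells and 117 and 126 CPM in T cells. All footprint values were above all mRNA values. The log2 ratio was 1.19 ± 0.26 in T cells (edgeR adjusted p = 0.0124) and 0.76 ± 0.26 in B cells (edgeR adjusted p = 0.0719). The T cell call was lost without T cell RNA-seq library 1 alone, at an edgeR adjusted p of 0.0666. The remaining alpha genes, Psma1 to Psma4 and Psma7, had ratios from 0.01 to 0.43 in B cells and from -0.25 to 0.64 in T cells.

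Of the 6 base ATPases, 2 were called higher in footprints over mRNA in B cells and 3 in T cells, against 10.2% and 14.5% of all genes. Their median log2 ratio was 0.60 in B cells and 0.72 in T cells, where all 6 were positive. The others did not pass, and no test of the group was made. Psmc6 had 185 and 161 CPM of footprints in B cells and 265 and 163 CPM in T cells, against 60.6 and 59.2 CPM of mRNA in B cells and 76.4 and 70.0 CPM in T cells. Every footprint value was above every mRNA value. The log2 ratio was 1.35 ± 0.23 in B cells (edgeR adjusted p = 0.00684) and 1.33 ± 0.22 in T cells (edgeR adjusted p = 0.00457). The B cell call was lost without B cell RNA-seq library 1 or 3, at edgeR adjusted p of 0.0545 and 0.0564.

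Psmc2 had 164 and 193 CPM of footprints in B cells and 279 and 224 CPM in T cells, against 73.9 and 85.5 CPM of mRNA in B cells and 80.1 and 92.0 CPM in T cells. The footprint values again exceeded all mRNA values. The log2 ratio was 0.98 ± 0.23 in B cells (edgeR adjusted p = 0.0209) and 1.30 ± 0.22 in T cells (edgeR adjusted p = 0.00532). The B cell call was lost without B cell footprint library 3 or B cell RNA-seq library 1 or 3. Psmc4 was called in T cells, at 0.91 ± 0.27 with an edgeR adjusted p of 0.0388, and stood at 0.61 ± 0.28 in B cells. Its T cell call was lost without either T cell footprint library or any one RNA-seq library. Psmc1 and Psmc3 were nearest to 0, at -0.05 ± 0.26 and 0.09 ± 0.21 in B cells, against 0.36 ± 0.25 and 0.22 ± 0.20 in T cells. Between B cells and T cells 0 of 6 ATPase genes were called in either assay. The shares of all genes were 18.5% in RNA-seq and 13.2% in footprints. The mRNA values of the 6 ran from -0.28 to 0.16 and the footprint values from -0.44 to 0.06.

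Of the 11 lid and other base genes, 0 were called between the cell types in either assay. The shares of all genes were 13.2% in footprints and 18.5% in RNA-seq. The median log2 difference of the 11 was -0.21 in footprints and -0.08 in mRNA. Psmd8, a lid subunit, had the second largest positive mRNA difference, with 210 and 162 CPM in B cells and 150 and 150 CPM in T cells. Its groups did not overlap, but the value of 0.32 ± 0.17 did not pass (edgeR adjusted p = 0.267). Psmd2, a base scaffold subunit, had the largest positive footprint difference, 0.43 ± 0.41, from 210 and 120 CPM in B cells and 143 and 109 CPM in T cells. These groups overlapped, and without B cell footprint library 1 the value was -0.06, against 0.77 without B cell footprint library 3. Psmd7, the lid partner of the deubiquitinase, had 78.1 and 55.3 CPM of footprints in B cells and 82.6 and 149 CPM in T cells (log2 -0.65 ± 0.51). The deubiquitinase gene itself, Psmd14, was at -0.09 ± 0.44 in footprints and -0.14 ± 0.11 in mRNA. Psmd4, a ubiquitin receptor, was at -0.54 ± 0.38 in footprints and -0.02 ± 0.12 in mRNA.

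Psmd1, the other large scaffold of the base, had the highest footprints over mRNA of all 36 genes. It had 181 and 82.9 CPM of footprints in B cells and 112 and 143 CPM in T cells, against 44.7 and 36.4 CPM of mRNA in B cells and 46.7 and 33.4 CPM in T cells. Each footprint value was above each mRNA value. The log2 ratio was 1.53 ± 0.37 in B cells (edgeR adjusted p = 0.0226) and 1.36 ± 0.36 in T cells (edgeR adjusted p = 0.0255). Without B cell footprint library 1 the B cell value was 0.86, and this call was also lost without either B cell RNA-seq library. The T cell call was lost without T cell footprint library 1 or 2 or T cell RNA-seq library 4. Psmd1 overlaps Htr2b and a predicted gene, Gm22786. The lid genes Psmd12 and Psmd6 were called in T cells, at 0.97 ± 0.24 (edgeR adjusted p = 0.0209) and 0.72 ± 0.20 (edgeR adjusted p = 0.0305), and stood at 0.85 ± 0.26 and 0.15 ± 0.22 in B cells. Without T cell footprint library 1 the Psmd12 value was 0.54, with an edgeR adjusted p of 0.385. Both calls were lost without T cell footprint library 1 or either T cell RNA-seq library, and that of Psmd6 also without either B cell RNA-seq library. Psmd3, a lid subunit, lay low at -0.89 ± 0.29 in B cells and -0.66 ± 0.28 in T cells, and did not pass.

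The assembly chaperones guide the building of the particle and are not part of it. Psmg1 to Psmg4 act on the core, and Psmd5, Psmd9 and Psmd10 on the base. In mRNA 0 of 7 were called, against 18.5% of all genes, and their median log2 difference of -0.25 was the lowest of the groups. Psmg1 had 18.2 and 17.7 CPM in B cells and 21.2 and 30.2 CPM in T cells. Its groups did not overlap, but the log2 difference of -0.50 ± 0.23 did not pass (edgeR adjusted p = 0.212). Psmd10 had 19.0 and 21.4 CPM in B cells and 25.7 and 27.6 CPM in T cells (log2 -0.38 ± 0.17, edgeR adjusted p = 0.211). Footprint counts of the 7 genes ran from 1 to 17 in B cells and from 1 to 25 in T cells, and at 1 extreme Psmd10 had 17 and 1 counts in the B cell libraries. Psmc3ip, which is no subunit, had 0 and 1 footprint counts in B cells, and 1 and 3 counts in T cells. Its RNA-seq counts were 163 and 186 in B cells, and 182 and 210 counts in T cells.

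The replicate libraries of a group differed less for proteasome genes than for most. The median absolute log2 difference between the 2 libraries of a group was 0.36 for footprints of B cells and 0.31 for those of T cells, and 0.11 and 0.14 for their RNA-seq. Over all 4660 genes it was 0.52, 0.46, 0.19 and 0.20 in the same groups. This was not tested, and deeper counts also narrow such differences.

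The genes that work around the proteasome were read from a list of 28 further genes of the pathway, chosen with earlier results of these data known. They cover subunits with other symbols, bound enzymes, assembly factors, ubiquitin shuttles, the Vcp unfoldase, transcriptional control and ubiquitin itself. In mRNA 1 of 28 was higher and 1 lower in B cells, against 9.4% and 9.06% of all genes, with a median log2 difference of -0.07. Nfe2l1, the transcription factor known to induce proteasome genes when proteasome activity falls, had 94.6 and 94.1 CPM in B cells, against 63.7 and 69.8 CPM in T cells (log2 0.51 ± 0.11, edgeR adjusted p = 0.0422). Ngly1, the enzyme that removes sugars from the Nfe2l1 protein, had 33.7 and 29.4 CPM in B cells, against 60.0 and 54.7 CPM in T cells (log2 -0.85 ± 0.15, edgeR adjusted p = 0.0242). In both the mRNA groups did not overlap, as for 61.3% of all genes, and the directions were opposite. Neither mRNA call was checked with a library left out or under another alternative. Nfe2l1 footprints were 103 and 134 CPM in B cells and 106 and 149 CPM in T cells (log2 -0.01 ± 0.44). Ngly1 footprints were at a log2 difference of -1.25 ± 0.71 and did not pass (edgeR adjusted p = 0.331). In footprints edgeR called 0 of 24 tested genes between the cell types, against 13.2% of all genes, and 0 also at an unadjusted p under 0.05, with a median of -0.36.

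In footprints over mRNA, the B cells had 2 of these 24 genes higher and 5 lower, with a median of 0.19, and the T cells had 5 higher and 6 lower, with a median of 0.46. The background for B cells was 10.2% called higher and 12.8% called lower, and for T cells 14.5% and 16.9%. The ubiquitin genes Rps27a and Ubb were lower in both, at -2.48 ± 0.33 and -1.90 ± 0.34 in B cells, against -2.92 ± 0.34 and -1.36 ± 0.33 in T cells. The unfoldase Vcp was lower in both as well, at -1.89 ± 0.35 in B cells and -1.25 ± 0.33 in T cells. The largest value was that of Uba6, a ubiquitin-activating enzyme, at 3.16 ± 0.48 in T cells with an edgeR adjusted p of 0.00372, while its 1.58 ± 0.51 in B cells did not pass (edgeR adjusted p = 0.0609). The shuttle factor gene Rad23b was higher in both, at 1.14 ± 0.21 in B cells and 1.28 ± 0.21 in T cells. The translational efficiency of B over T cells was called for 0 of 24 by edgeR, with 3 of 24 at an unadjusted p under 0.05. Rps27a has processed copies in the genome and Ubb is built of repeats, so the counting could split their reads.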

How the data were processed

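Footprints and mRNA were measured in resting splenic B and T cells of the mouse, in 8 libraries, 2 for each cell type and assay. The deposited values are whole-number counts per Ensembl gene ID, and the authors' tools, per the submitters' processing notes, were FastQC, Bowtie2, TopHat and HTSeq with the mm10 build. RNA-seq libraries followed a TruSeq RNA v2 guide, per the labels. Versions, settings, the annotation release, the counted feature and the use of strand were not stated.

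Symbols came from a names table that matched 53620 of 53801 IDs, and gene classes, positions and promoter windows from the RefSeq table of GRCm38.p6, which matched 38375. Promoter windows of 250 bases before to 50 after the start were found for 40 of 48 genes. The 4 pseudogene IDs named like members held 0 counts. Of the count columns 0 were left unused.

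The test was edgeR's quasi-likelihood test (version 4.0.16, R 4.3.3) on counts with TMM scaling, and p-values were adjusted by Benjamini-Hochberg over all genes tested, with a threshold of 0.05. Low genes were removed by filterByExpr (minimum count 10, minimum total 15), in both assays for ratios. B and T cells were compared within an assay with 2 residual degrees of freedom. Footprints were set against mRNA, and translational efficiency of B over T cells taken as their interaction, in a fit of all 8 libraries with 4. A log2 difference is B over T cells, or else footprints over mRNA within a cell type, and ± is its standard error. Intervals of ratios and shares of counts are exact (Clopper-Pearson) and cover counting error only. The fits were also run on simulated counts of known answer, whose outcome is not given here. These counts were drawn with the dispersions fitted to these data. They therefore cannot show how the fits do on 2 real libraries a group.

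The members, the lists and the tests were chosen with earlier results of these data known. Genes were named if they passed the threshold, or had 1 of the 2 largest differences in either direction, or were catalytic or PA28 genes, with up to 4 pathway genes per comparison; others named were chosen for their role after their values were seen. Levels per gene length, planned as a description, were not computed for lack of a table of lengths. As alternatives, single libraries were left out, the replicate number was used as a block, RNA-seq was thinned, and the filter, the scaling (RLE, upper quartile, TMM within each assay), the tool (DESeq2 1.42.0) and the features (protein-coding genes alone) were changed.

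Libraries of a group differed by more than sampling noise, with a chi-square over degrees of freedom of 4.43 or more, so none was taken for a repeat deposit of another; this does not show that they came from separate animals.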

Additional observations from a re-analysis of the deposited data

How the results depend on the processing

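Of 682 values of named proteasome genes under an alternative, 567 kept their direction and side of the threshold. A further 74 fell below it and 5 rose above it. Another 36 that were never called changed sign, and 0 changed sign while called. The pathway genes, and proteasome genes named for their role alone, were not followed under the alternatives. Leaving out a library in turn, the genes called were 1415 to 1960 for B over T cells in RNA-seq and 432 to 932 in footprints. They were 342 to 1118 for footprints over mRNA in B cells, with 0 to 5 proteasome genes higher and 0 to 2 lower, and 689 to 1751 in T cells, with 3 to 12 higher and 1 to 5 lower. In RNA-seq the proteasome genes called lower were 0 without any one library, with no filter and with thinned RNA-seq, which called 500 genes. With no filter, footprints over mRNA called 2633 genes in B cells, with 0 proteasome genes lower, and 3753 in T cells, with 1 lower and a median of 0.52. TMM within each assay gave 8 higher and 0 lower in B cells and 14 higher and 1 lower in T cells, with a median of 0.59. The excess of that median over the median of all genes was 0.35 under both and in the main fit. DESeq2 called 3 lower in B cells, and 4 genes of all in translational efficiency.

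Whether library numbers pair the samples could not be decided. Deviations of same-numbered footprint and RNA-seq libraries correlated at 0.04, 0.04 and -0.10 over 4660 genes. With 2 libraries a group the deviations mirror each other, so the B cell values are a single result. Counting noise in the shallow footprints also weakens such a correlation. In RNA-seq, Mpo had 71 and 92.8 CPM in the libraries numbered 1 of B and T cells, against 0 and 0.862 CPM in the others. Jchain had 1370 and 1010 CPM, against 245 and 57.4 CPM. Elane, another of the 4 neutrophil markers, followed Mpo, at 23.6 and 22.8 CPM against 0.218 and 0.323 CPM. The other neutrophil markers, S100a8 and S100a9, did not in B cells. There library 3 was higher, at 4.03 and 6.86 CPM against 0.915 and 1.03 CPM. In footprints Mpo had 0 counts in every library, and Jchain had 1050 and 2550 CPM in B cell libraries 1 and 3. A shared origin of the RNA-seq libraries numbered 1 was not tested. A replicate block, possible for footprints over mRNA alone and with 1 residual degree of freedom, gave 2 proteasome genes higher and 0 lower in B cells, 0 and 0 in T cells, where 568 genes were called in all, and 36 genes in translational efficiency. Footprint depth and 2 libraries a group both limit the B over T comparison. Levels without division by length could not be set against levels per length, which were not run. The causes of these changes were not tested.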
